A study of Mus musculus with 8 samples.

Results

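The RNAs described here are those made from the mitochondrial genome, taken as every gene whose symbol begins with mt-. They number 37 of the 52636 genes listed: 13 messenger RNAs, 2 ribosomal RNAs and 22 transfer RNAs. Liver RNA was sequenced from 8 libraries of C57BL/6 mice aged 8 weeks. The 4 WT libraries carry the genotype CTCF fl/fl Albcre- and the 4 cKO libraries CTCF fl/fl Albcre+. Both genotypes therefore carry floxed Ctcf, the gene of the chromatin insulator protein CTCF. They differ in a Cre recombinase under an albumin promoter, which is active in hepatocytes, and no library with Cre and unfloxed Ctcf was analysed here. The comparison asks how liver RNA differs between the genotypes. The labels do not say that each library came from a separate mouse, so the p-values below measure only how these samples spread, which may be technical.

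The mitochondrial genome is a small circle, present in many copies per cell, that encodes subunits of the oxidative phosphorylation complexes together with the ribosomal and transfer RNAs needed to translate them. Both strands are transcribed into long precursors, from which the transfer RNAs are cut out, releasing most messenger and ribosomal RNAs between them. The polymerase, the processing enzymes and the remaining subunits are encoded in the nucleus. Stretches of mitochondrial DNA have also been inserted into nuclear chromosomes, and reads from a recent insertion can look the same as reads from the mitochondrion.

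A nuclear block on chromosome 1 matched 8 of the 13 messengers, and for 7 of them the files list a gene that could be the partner. The 15 messenger and ribosomal RNAs were searched against the NCBIM37 mouse genome, which is an older build than the mm10 genome of the files. The length of all 37 genes was the same in both. On chromosome 1, minus strand, a block at chr1:24618374-24623027 matched 8 of the 15 RNAs, 7 of them with every aligned base identical. The match covered the whole of mt-Co2, mt-Atp8, mt-Atp6, mt-Co3 and mt-Nd4l, mt-Nd3 from base 4 on, the first 876 of the 1378 bases of mt-Nd4, and the last 483 of the 1545 bases of mt-Co1 with 1 mismatch. Less identical matches lay elsewhere. Chromosome 2 matched the whole of mt-Co1 (97.6%) and mt-Co2 (95.9%) and part of mt-Nd2 (96.7%). mt-Nd5 (95.2%, chromosome 13), mt-Nd6 and mt-Cytb (93.6% and 92.9%, chromosome 4) also had nuclear matches, as did both ribosomal RNAs. The highest identity of any match outside that block was 97.8%. The stretches of mt-Nd4 and mt-Co1 below are shown because they hold the edge of the chromosome 1 match; capitals mark the bases inside it, where the copy is identical or, over mt-Co1, differs at 1 base. Those of mt-Atp8 and mt-Atp6 show how these genes lie on each other; capitals mark the 43 bases they share on the mitochondrial genome itself. All are on the plus strand, 5′ to 3′, from GENCODE transcripts of NCBIM37, at chrM:6360-6419 for mt-Co1, chrM:11013-11072 for mt-Nd4, chrM:7910-7969 for mt-Atp8 and chrM:7927-7986 for mt-Atp6.
mt-Co1: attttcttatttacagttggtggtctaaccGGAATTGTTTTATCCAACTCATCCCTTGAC
mt-Nd4: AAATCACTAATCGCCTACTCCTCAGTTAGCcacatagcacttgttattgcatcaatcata
mt-Atp8: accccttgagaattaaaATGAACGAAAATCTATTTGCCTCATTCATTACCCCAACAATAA
mt-Atp6: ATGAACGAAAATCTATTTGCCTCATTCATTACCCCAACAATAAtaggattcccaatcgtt

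The files list 7 genes that could be paired with these messengers: Gm29216 with mt-Co1, Gm28661 with mt-Co2, Gm10925 with mt-Atp6, Gm28437 with mt-Co3, Gm28438 with mt-Nd3, Gm10222 with mt-Nd4l and Gm28439 with mt-Nd4. RefSeq's table for GRCm38.p6 annotates Gm10222 and Gm10925 as pseudogenes on chromosome 1, at chr1:24612404-24612700 and chr1:24613971-24614651. The other 5 are not annotated in the tables used here and were paired after the data had been seen, by the length the files give them. Gm28439 and Gm28438 are 876 and 345 bases long, the same as the matched parts of mt-Nd4 and mt-Nd3. Gm28437 is 783 bases beside 784 of mt-Co3, and Gm29216 is 492 beside the 483 matched bases of mt-Co1. Gm28661 is 681 bases, beside 684 of mt-Co2 but also 681 of mt-Atp6, for which Gm10925 is the annotated copy, so length does not settle that pair. The annotated Gm10925 and Gm10222 are likewise listed with 678 and 294 bases, somewhat shorter than mt-Atp6 (681) and mt-Nd4l (297). RSEM, the program behind the deposited counts, divides reads that fit several genes, which gives expected counts that need not be whole. Exactly these 7 messengers had fractional counts in all 8 libraries. mt-Nd2 had them in 7 and mt-Nd5 in 2. The counts of the other 6 genes with data, mt-Rnr1, mt-Rnr2, mt-Nd1, mt-Atp8, mt-Nd6 and mt-Cytb, were whole in every library. For mt-Atp8 that holds although its sequence also lies in the block.

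The division was uneven between genes. Gm28661 received 84.9% to 90.2% of the counts of its pair with mt-Co2, Gm10925 84.2% to 92.3% with mt-Atp6, and Gm28438 82.4% to 86.1% with mt-Nd3. Gm28437 held 41.2% to 60.5% beside mt-Co3, and Gm10222 held 35.5% to 56.7% beside mt-Nd4l. Gm28439 held 0.0198% to 0.11% beside mt-Nd4, which has a long stretch that the copy lacks. The copy of mt-Co1 was the 1 pair in which the genotypes did not overlap: Gm29216 held 4.582, 4.036, 5.095 and 7.028% in WT and 10.05, 7.352, 7.381 and 13.7% in cKO. Gm29216 itself rose, from 1520, 1605, 2025 and 2211 CPM (counts per 1000000, scaled with TMM factors) to 3009, 2500, 2156 and 3532 CPM. The lowest cKO value lay below the highest WT value. On the log2 scale it changed by 0.61 (SE 0.17, edgeR adjusted p = 0.0209), and the call ended without WT replicate 1, WT replicate 2, cKO replicate 1 or cKO replicate 4 (adjusted p 0.0511 to 0.0559). It was the 1 copy of the 7 that was called, beside 15.2% called higher and 14.9% called lower of all tested genes. Since the division cannot be checked from gene totals, each affected messenger is given below both as counted and as the sum of its pair.

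**Figure D1:**
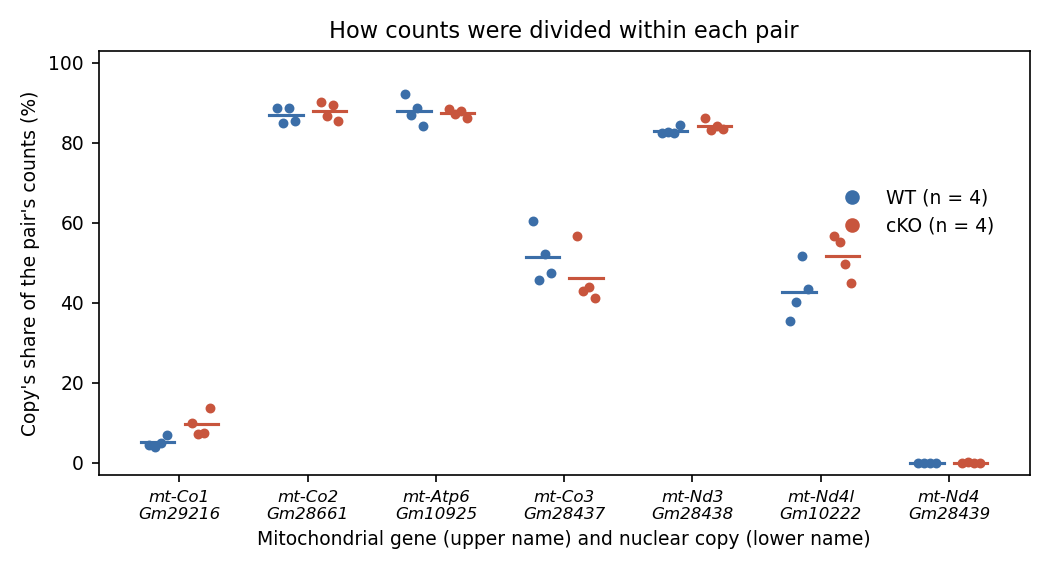
Percentage of each pair's expected counts given to the nuclear copy (lower name) rather than the mitochondrial gene (upper name), 1 point per library and a line at the mean of 4. The copies of mt-Co2, mt-Atp6 and mt-Nd3 hold over 82% everywhere, that of mt-Nd4 at most 0.11%, and the mt-Co1 pair is the one without overlap between genotypes.

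The libraries held 43899481 to 57279620 counts, with TMM scaling factors from 0.958 to 0.973 in WT and from 1.02 to 1.06 in cKO. The factors did not overlap, and they lower cKO levels relative to WT. Genotypes were compared with edgeR's quasi-likelihood test over the 15562 genes that passed a filter on low counts, and calls were made at a Benjamini-Hochberg adjusted p below 0.05. Ctcf was 16.81, 16.87, 16.31 and 16.01 CPM in WT and 12.02, 13.08, 12.69 and 10.92 CPM in cKO. Every cKO library lay below every WT library (log2 change -0.44, SE 0.08, edgeR adjusted p = 0.00177). All 10 hepatocyte markers were detected, with a summed level of 89800 to 118000 CPM in WT and 100000 to 112000 CPM in cKO, so the tissue label holds. Of these markers, 1 was called higher and 5 lower. Of all tested genes, 15.2% were called higher and 14.9% lower. The 10 stellate cell and fibroblast markers were all called higher, with sums of 234 to 259 CPM in WT and 426 to 553 CPM in cKO, and 4 of 8 lymphocyte markers were called higher, with sums of 3.69 to 5.98 and 6.1 to 8.92 CPM. The sums overlapped for macrophage markers (3 of 10 called higher, 231 to 350 and 195 to 318 CPM), endothelial markers (1 of 8 higher, 104 to 202 and 148 to 229 CPM) and cholangiocyte markers (2 higher and 1 lower of 5, 34.5 to 43.4 and 26.8 to 35.6 CPM). Most of the cholangiocyte sum was Spp1, which fell from a mean of 34.9 to 21.8 CPM. Epcam rose from 1.1 to 3.13 CPM and Krt7 from 0.681 to 1.5 CPM, both without overlap. The part of these cell types in the results below was not tested. In whole liver, fewer cells of a type and less RNA per cell cannot be told apart.

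Mitochondrial genes took 7.632, 9.032, 9.426 and 7.447% of all counts in WT, a mean of 8.38% ± 0.992 (SD, n = 4). In cKO they took 7.627, 8.815, 7.822 and 6.214%, a mean of 7.62% ± 1.07 (SD, n = 4). The ranges overlapped widely: cKO replicate 4 was lowest of all, and cKO replicate 2 exceeded WT replicates 1 and 4. The 13 messengers made up nearly all of it, 8.28% ± 0.983 in WT and 7.54% ± 1.06 in cKO (SD, n = 4). The 2 ribosomal RNAs held 0.08935, 0.1213, 0.09672 and 0.09119% of counts in WT and 0.06723, 0.08687, 0.08152 and 0.06302% in cKO. Here every cKO value was below every WT value, the nearest being WT replicate 1 and cKO replicate 2. Within the mitochondrial counts, however, the ribosomal part was 1.19% ± 0.131 in WT and 0.981% ± 0.0701 in cKO (SD, n = 4), and these ranges overlapped.

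The paired copies held a further 2.65% ± 0.272 of counts in WT and 2.74% ± 0.311 in cKO (SD, n = 4). With them, the mitochondrial share was 11.0% ± 1.24 and 10.4% ± 1.31 (SD, n = 4), again with overlap. The share also depended on the unit. Of the deposited TPM, which divide by effective length (the number of positions at which a fragment can start), the mitochondrial genes without copies took 9.91% ± 1.12 in WT and 9.92% ± 1.17 in cKO (SD, n = 4). Shares are sums over the genes chosen here and carry no p-value.

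**Figure D2:**
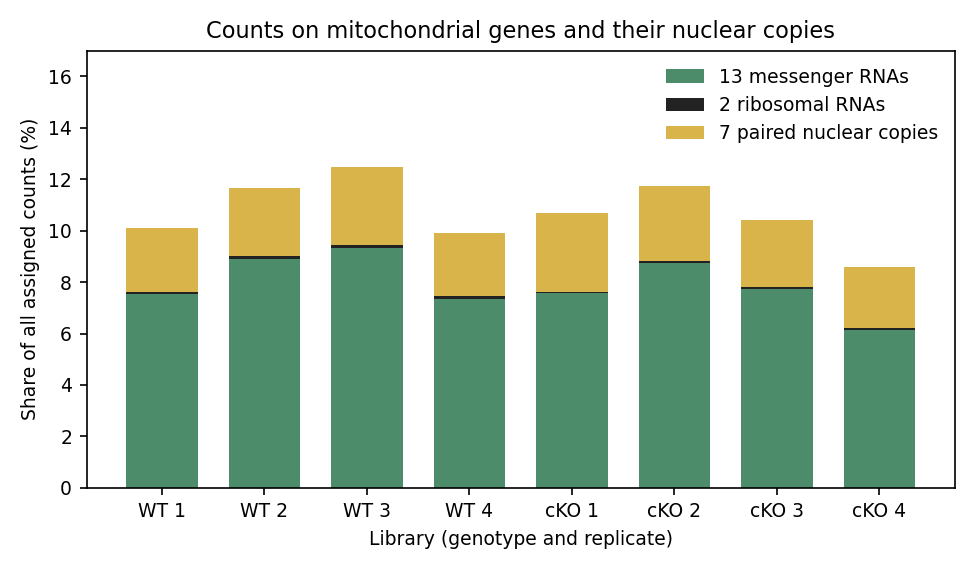
Percentage of all expected counts on mitochondrial messengers, ribosomal RNAs and the 7 paired nuclear copies, 1 stacked bar per library. Bar heights run from 8.586% in cKO replicate 4 to 12.46% in WT replicate 3, and the genotypes overlap; the ribosomal RNAs are the thin dark band.

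Of the 15 messenger and ribosomal RNAs, all of which passed the filter, 3 were called by edgeR, all lower in cKO, beside the 14.9% called lower and 15.2% called higher of all 15562 genes. The levels of 2 of the 15 did not overlap between genotypes, both lower in cKO (13.3%; of all 15562 genes, 30.6% did not overlap and 15.6% were lower without overlap). With the copies added, the 2 ribosomal RNAs were called, both lower, with the same percentages over all genes. The share called lower lies near that of all genes. The median log2 change of the messengers was -0.19 either way, beside -0.007 over all genes.

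**Figure D3:**
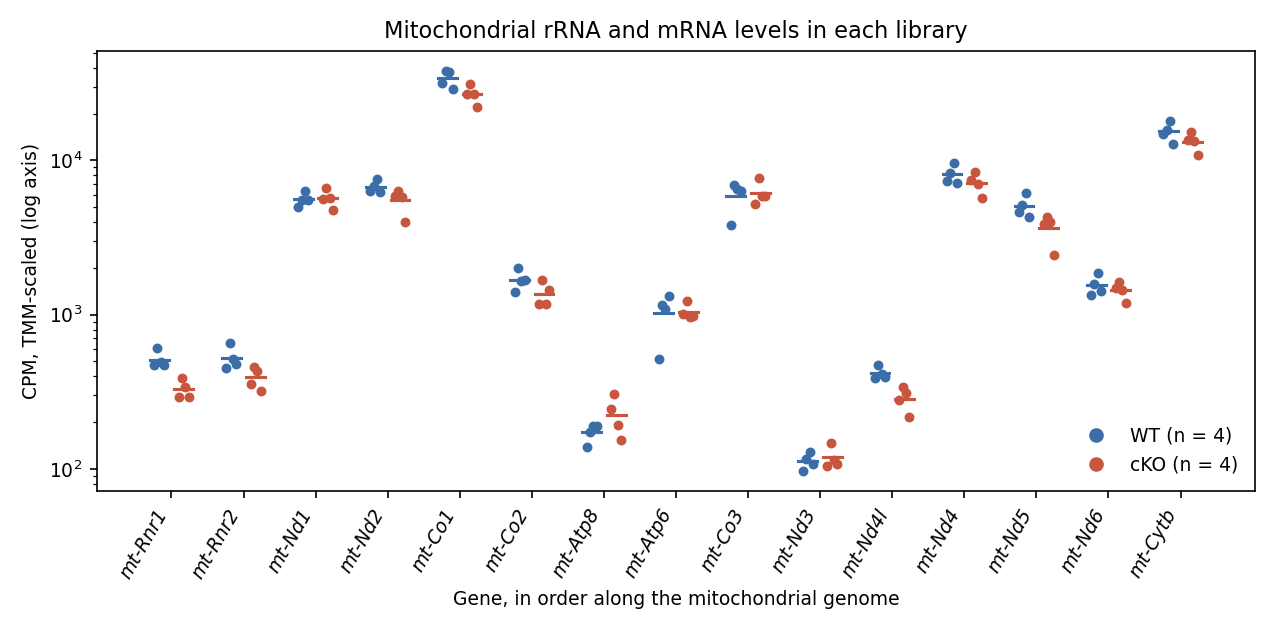
TMM-scaled CPM of the 15 mitochondrial messenger and ribosomal RNAs on a log axis, 1 point per library (4 WT, 4 cKO) with a line at each mean. mt-Rnr1 and mt-Nd4l, before its copy is added, are the genes without overlap; mt-Co1 and mt-Cytb stand highest.

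Both ribosomal RNAs fell. mt-Rnr1, the RNA of the small mitochondrial ribosomal subunit, was 468.6, 606.5, 496.3 and 472.7 CPM in WT and 290, 390.3, 339.3 and 293.1 CPM in cKO. All 4 cKO libraries lay below all 4 WT libraries, with the cKO mean at 64.2% of the WT mean. The log2 change was -0.64 (SE 0.11, edgeR adjusted p = 0.00213). mt-Rnr2, the RNA of the large subunit, was 449.6, 649.7, 511.7 and 479.2 CPM in WT and 356.6, 458.7, 428.6 and 321.7 CPM in cKO. It overlapped in that cKO replicate 2 exceeded WT replicate 1. On the log2 scale it changed by -0.42 (SE 0.14, edgeR adjusted p = 0.039), and the call ended without WT replicate 2, WT replicate 3, cKO replicate 1, cKO replicate 3 or cKO replicate 4 (log2 -0.3 to -0.45, adjusted p 0.0572 to 0.102) with scaling by library size alone (log2 -0.31, adjusted p = 0.106), with no filter on low counts (adjusted p = 0.0541) and with limma on either TPM scale (log2 -0.23, adjusted p 0.241 and 0.279).

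mt-Rnr1 and mt-Rnr2 lie next to each other, with mt-Tv, a transfer RNA gene, between them, and are cut from the same precursor. The ratio of their counts needs no scaling between libraries. It was 1.042, 0.9336, 0.9697 and 0.9865 in WT and 0.8134, 0.8509, 0.7917 and 0.9112 in cKO, without overlap, though WT replicate 2 and cKO replicate 4 were close. The log2 difference was -0.22 (p = 0.0286 by an exact two-sided permutation test, which 4 against 4 libraries cannot go below, and 0.0429 after adjustment over 3 ratios). The ratio of mt-Rnr2 to mt-Cytb, a messenger at the far end of the same strand's transcript, was 0.0342 ± 0.0059 in WT and 0.0296 ± 0.0024 in cKO (SD, n = 4). It overlapped (log2 difference -0.19, exact permutation p = 0.229, also after adjustment). In TPM, a per-length scale, mt-Rnr1 was at 690 ± 93.2 and mt-Rnr2 at 390 ± 69.4 in WT (SD, n = 4), below every messenger summed with its copy. How much of each ribosomal RNA the library preparation recovered is not given in the sources used here.

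Complex I, NADH dehydrogenase, takes 7 of its subunits from the mitochondrial genome. mt-Nd1 was 4953, 5551, 6372 and 5497 CPM in WT and 5606, 6611, 5689 and 4763 CPM in cKO, with full overlap (log2 change 0.02, SE 0.11, edgeR adjusted p = 0.916). mt-Nd2 was 6354, 6852, 7570 and 6228 CPM in WT and 5885, 6316, 5805 and 4014 CPM in cKO. Only cKO replicate 2 reached the WT range, by exceeding WT replicate 4, and the log2 change of -0.29 did not pass the test (SE 0.13, edgeR adjusted p = 0.111). With a replicate block, which treats libraries of the same number as pairs, mt-Nd2 was called lower (log2 change -0.31, edgeR adjusted p = 0.0474). mt-Nd5 was 4598, 5122, 6103 and 4300 CPM in WT and 3898, 4314, 3982 and 2447 CPM in cKO. Again cKO replicate 2 alone overlapped, and cKO replicate 4 was far below the rest (log2 change -0.46, SE 0.17, edgeR adjusted p = 0.069). DESeq2 called it lower (adjusted p = 0.0247), as did edgeR with the replicate block (adjusted p = 0.0119).

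mt-Nd4l, a small membrane subunit of complex I, was 385.9, 469.1, 414.7 and 393 CPM in WT and 277.9, 336.8, 310.8 and 216.9 CPM in cKO. As counted, it was the 1 messenger called (log2 change -0.54, SE 0.12, edgeR adjusted p = 0.00791) and the 1 without overlap; the call ended with limma on log2(TPM + 0.1) (log2 change -0.36, adjusted p = 0.0619). Together with Gm10222 the values were 598.4, 784.5, 856.8 and 694.9 CPM in WT and 641, 750.7, 618 and 393.5 CPM in cKO. The pair overlapped in 3 of 4 cKO libraries and was not called (log2 change -0.29, SE 0.19, edgeR adjusted p = 0.279). mt-Nd4l shares its last 7 bases with the start of mt-Nd4. mt-Nd4 was 7370, 8297, 9589 and 7185 CPM in WT and 7411, 8364, 7002 and 5673 CPM in cKO, and overlapped (log2 change -0.19, SE 0.13, edgeR adjusted p = 0.287; the same with its copy). mt-Nd3 was 96.5, 115.4, 128.2 and 107.7 CPM in WT and 104.4, 147.3, 113.9 and 108 CPM in cKO. Its log2 change was 0.08 alone (SE 0.12, adjusted p = 0.636) and 0.19 with Gm28438 (SE 0.11, adjusted p = 0.212), and both overlapped.

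mt-Nd6 is the only messenger encoded on the minus strand. It was 1332, 1583, 1868 and 1428 CPM in WT and 1482, 1617, 1450 and 1190 CPM in cKO, with overlap (log2 change -0.11, SE 0.12, edgeR adjusted p = 0.499). The strand setting of the counting is not given in the sources used here, so reads from mt-Nd6 and from the opposite strand of the same stretch may not be told apart, and its last 14 bases overlap mt-Nd5. The ratio of mt-Nd6 to mt-Nd5 was 0.2896, 0.309, 0.306 and 0.3322 in WT and 0.3802, 0.3749, 0.3642 and 0.4864 in cKO. All cKO values were above all WT values, cKO replicate 4 farthest. The log2 difference was 0.37 (p = 0.0286, again the lowest the exact permutation test allows, and 0.0429 adjusted over the 3 ratios).

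Complex III and complex IV, which pass electrons to oxygen, take 1 and 3 subunits from the mitochondrial genome. mt-Cytb, the cytochrome b of complex III, was 14870, 15870, 18050 and 12860 CPM in WT and 13470, 15190, 13280 and 10890 CPM in cKO. It overlapped and was not called (log2 change -0.22, SE 0.12, edgeR adjusted p = 0.196). mt-Co1, the catalytic subunit of complex IV and the messenger with the most counts, was 31640, 38160, 37720 and 29250 CPM in WT and 26930, 31510, 27050 and 22240 CPM in cKO. Only cKO replicate 2 lay within the WT range. The log2 change was -0.34 (SE 0.13, edgeR adjusted p = 0.056), and -0.28 with Gm29216 (SE 0.11, adjusted p = 0.0842). As counted, mt-Co1 was called lower by DESeq2 (adjusted p = 0.0236), with no filter on low counts (adjusted p = 0.0322), and without WT replicate 4 or cKO replicate 2 (adjusted p 0.0338 and 0.0357). It was also called lower with the replicate block (edgeR adjusted p = 0.0138).

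mt-Co2, the subunit that receives electrons from cytochrome c, was 1407, 2014, 1642 and 1667 CPM in WT and 1175, 1668, 1170 and 1444 CPM in cKO by itself. With Gm28661, which held most of the pair, it was 12510, 13310, 14580 and 11370 CPM in WT and 12030, 12480, 11000 and 9999 CPM in cKO. Both sets of values overlapped, at a log2 change of -0.3 alone (SE 0.14, edgeR adjusted p = 0.113) and -0.19 as a pair (SE 0.1, adjusted p = 0.19). Alone, mt-Co2 was called lower with the replicate block (edgeR adjusted p = 0.0168) and without cKO replicate 2 (edgeR adjusted p = 0.0416). mt-Co3 alone was 3838, 6903, 6504 and 6367 CPM in WT and 5202, 7704, 5913 and 5884 CPM in cKO. With Gm28437 it was 9712, 12700, 13590 and 12110 CPM in WT and 11990, 13530, 10550 and 10010 CPM in cKO. WT replicate 1 was the lowest library in both, and the genotypes overlapped. Neither mt-Co3 alone (log2 change 0.07, SE 0.18, edgeR adjusted p = 0.817) nor the pair (log2 change -0.06, SE 0.12, adjusted p = 0.733) was called.

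Complex V, the ATP synthase, takes its mt-Atp6 and mt-Atp8 subunits from 1 transcript with overlapping reading frames, the stretch printed above. mt-Atp6 was 517.5, 1160, 1081 and 1311 CPM in WT and 1015, 1220, 957.8 and 985.7 CPM in cKO. WT replicate 1 was less than any other library, and with Gm10925 it was again lowest, at 6718 CPM, in a range that reached 9619 CPM in WT and ran from 7180 to 9482 CPM in cKO. Neither mt-Atp6 (log2 change 0.04, SE 0.26, edgeR adjusted p = 0.929) nor its pair (log2 change -0.01, SE 0.12, adjusted p = 0.979) was called. mt-Atp8 was 138.9, 172.3, 188.6 and 189.5 CPM in WT and 245.7, 304.4, 191.5 and 154.5 CPM in cKO. In 3 cKO libraries it exceeded every WT library, and cKO replicate 4 lay within the WT range (log2 change 0.38, SE 0.2, edgeR adjusted p = 0.196). mt-Atp8 is 204 bases long, close to the typical fragment: its effective length was 38.5 to 45.8 bases, and gene length exceeded effective length by 178.0 to 180.6 bases in WT and 172.7 to 186.0 bases in cKO. With an effective length offset the log2 change of mt-Atp8 was 0.42 (edgeR adjusted p = 0.112). limma on log2(TPM + 1) and log2(TPM + 0.1) gave 0.56 and called it higher (limma adjusted p 0.034 and 0.0492). Those 2 fits called 24.7% and 23.2% of all genes higher. Beyond these fits, the part of fragment length in its level was not tested.

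**Figure D4:**
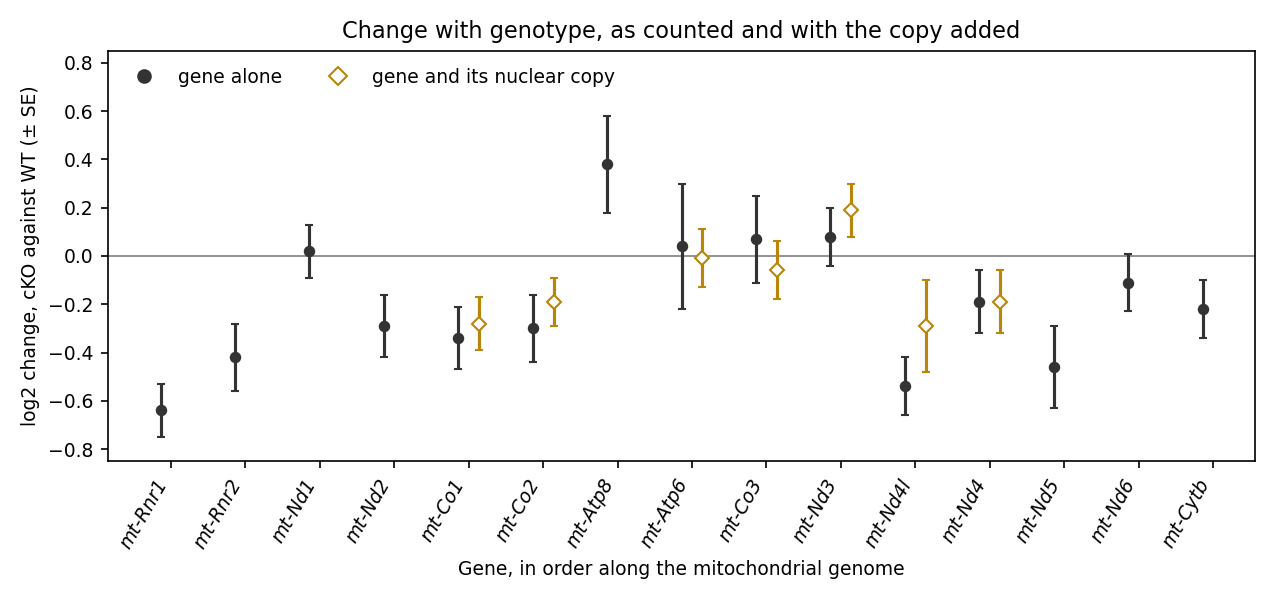
log2 change between genotypes (cKO against WT, ± SE, n = 4 each) in genome order, for each gene as counted (filled circles) and, for the 7 paired messengers, with the nuclear copy added (open diamonds). mt-Rnr1 lies lowest at -0.64, and mt-Nd4l moves from -0.54 to -0.29 when Gm10222 is added.

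Thus, in the main edgeR fit, 1 of 13 messengers was called lower and 0 higher, and with copies added 0 were called. At an unadjusted p below 0.05, 5 were lower and 0 higher as counted, and 3 passed with copies added. The share of all genes below that unadjusted p was not computed. It is at least the 14.9% lower and 15.2% higher called after adjustment, so these numbers do not by themselves set the messengers apart. DESeq2 called 3 messengers lower as counted, mt-Nd4l, mt-Co1 and mt-Nd5, and 0 higher, beside 15.7% lower and 16.5% higher of all genes. The libraries within a genotype moved together: cKO replicate 2 had the highest cKO value for 15 of the 15 genes and cKO replicate 4 the lowest for 10. In WT, replicate 1 was lowest for 10 and replicate 3 highest for 7. The coefficient of variation between libraries had a median of 13.7% in WT and 16.1% in cKO for these genes, and of 12.1% and 11.0% for all tested genes.

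The mix within the messengers is free of that common movement. As a percentage of all messenger counts with the copies included, 4 of 13 did not overlap between genotypes. That is 30.8%, beside 30.6% of all genes whose CPM did not overlap. Without the copies 3 were higher and 3 lower of 13 without overlap, or 46.2%. The background is for scaled CPM and not for shares within a set, so these percentages are not like for like. mt-Nd1 was 4.815, 4.645, 4.945 and 5.371% in WT and 5.49, 5.807, 5.839 and 5.727% in cKO. mt-Nd3 was 0.5362, 0.5612, 0.5644 and 0.6806% in WT and 0.7362, 0.775, 0.7406 and 0.79% in cKO. mt-Atp8 was 0.1351, 0.1442, 0.1464 and 0.1852% in WT and 0.2406, 0.2673, 0.1965 and 0.1858% in cKO. These 3 took larger shares in every cKO library, by a margin that for mt-Atp8 was as small as that between WT replicate 4 and cKO replicate 4. mt-Nd5 took smaller ones, at 4.47, 4.286, 4.736 and 4.201% in WT and 3.817, 3.789, 4.088 and 2.942% in cKO. Without the copies mt-Nd1, mt-Nd3, mt-Atp8 and mt-Nd5 kept these directions without overlap, and mt-Co1 (39.8% ± 1.57 and 37.0% ± 0.0683, SD, n = 4) and mt-Nd4l (0.486% ± 0.0402 and 0.391% ± 0.0271, SD, n = 4) were lower without overlap too. Those of mt-Co1 and mt-Nd4l overlapped once Gm29216 and Gm10222 were counted. These shares sum to a fixed total, so that 1 share cannot rise without others falling, and no test was made.

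**Figure D5:**
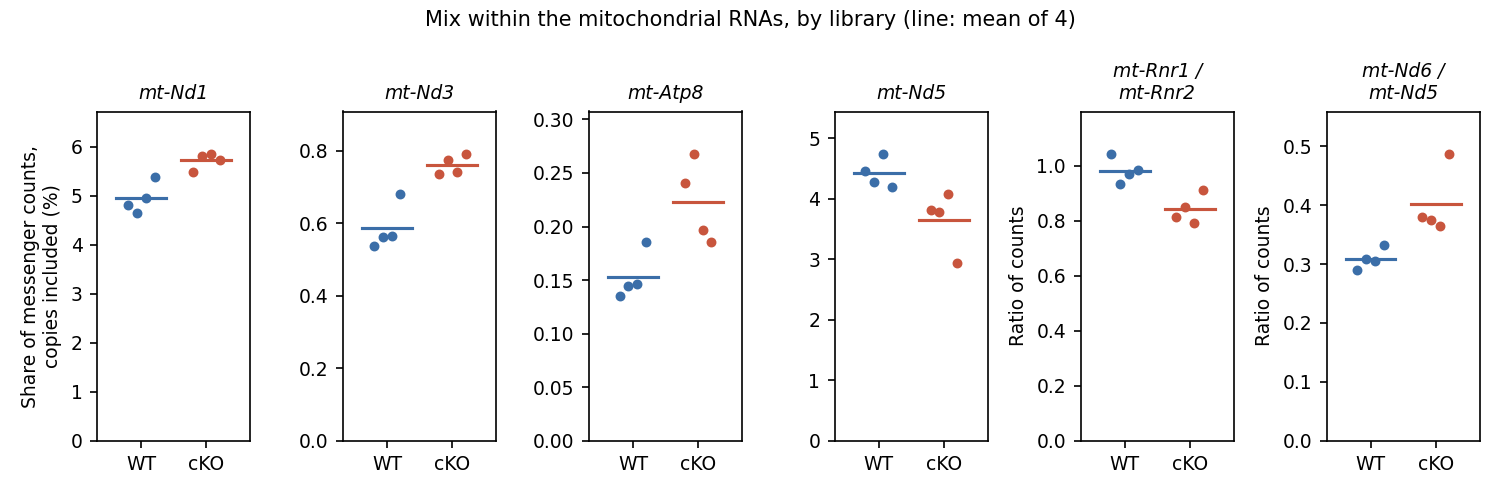
Share of 4 messengers in all mitochondrial messenger counts with the paired copies included (%, left 4 panels) and 2 ratios of counts (right 2 panels), 1 point per library with a line at the mean of 4 per genotype; every axis starts at 0. In each panel the genotypes do not overlap, with mt-Nd5 and the mt-Rnr1 to mt-Rnr2 ratio lower in cKO and the others higher.

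Levels per length were compared in TPM, with the copy added for the pairs that match over nearly their whole length. In WT, mt-Co2 with its copy was at 27000 ± 2650 TPM and mt-Co1 alone at 26200 ± 3400 TPM (SD, n = 4), which did not differ beyond their spread. mt-Co3 followed at 20800 ± 2820, mt-Atp6 at 17500 ± 2500 and mt-Cytb at 16700 ± 2230 TPM, the last 2 within their spread of each other. A gap separated these from mt-Nd2 at 8220 ± 686, mt-Nd1 at 7520 ± 734, mt-Nd4 at 7070 ± 908 and mt-Nd4l at 6390 ± 931 TPM, whose neighbours lay within their spread between libraries. Read within each WT library, however, these genes stood in that same order every time. mt-Nd6 at 4780 ± 685, mt-Atp8 at 4220 ± 498 and mt-Nd3 at 4130 ± 457 TPM came next, and mt-Nd5 was the lowest messenger at 3200 ± 478 TPM (SD, n = 4). With the copies credited to the mitochondrial genes, the complex IV, complex V and cytochrome b messengers thus stood above those of complex I, except mt-Atp8. This order rests on that choice. As counted, without their copies, mt-Co3 would have been at 10200 ± 2440 and mt-Co2 at 3490 ± 544 TPM. mt-Atp6 would have been at 2120 ± 728 and mt-Nd3 at 689 ± 77 TPM (SD, n = 4). mt-Co2 and mt-Atp6 would then stand below mt-Nd1, mt-Nd2 and mt-Nd4.

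The 22 transfer RNAs gave no measurement. They are 59 to 75 bases long, shorter than the fragments, and had an effective length of 0 in every library. A total of 9 counts, all on mt-Ts1, a serine transfer RNA, was recorded over 8 libraries. This says nothing of their level in the liver.

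The nuclear genes that serve the mitochondrial genome were read from lists, beside the background of 15.2% higher and 14.9% lower. Of 10 genes listed for mitochondrial transcription, 1 was called higher and 2 lower. Polrmt, the mitochondrial RNA polymerase, fell from 29.6 ± 1.56 to 23.6 ± 2.02 CPM (SD, n = 4; log2 change -0.33, SE 0.08, edgeR adjusted p = 0.00838) without overlap. Mterf2, of the mitochondrial termination factor family, rose from 2.51 ± 0.127 to 3.5 ± 0.206 CPM (SD, n = 4; log2 change 0.48, SE 0.12, edgeR adjusted p = 0.0111), also without overlap. Mterf4, which takes part in ribosome assembly, was called lower (log2 change -0.23, SE 0.07, edgeR adjusted p = 0.0306), a call that ended with any 1 library left out except WT replicate 4. Scaling by library size alone moves the median of all genes to 0.099 on the log2 scale and calls 23.2% of them higher and 8.47% lower. On that scale 3 of this list were called, all higher.

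Of 12 genes of mitochondrial DNA replication and nucleotide supply, 4 were called, all lower, with a median log2 change of -0.2 over the list. They included the nucleoside kinases Tk2 (29.2 ± 1.97 to 22.3 ± 2.18 CPM, SD, n = 4; edgeR adjusted p = 0.00515) and Dguok (17.6 ± 1.61 to 13.3 ± 1.02 CPM, adjusted p = 0.00585), and Polg, the catalytic subunit of the DNA polymerase (48.5 ± 2.82 to 40.2 ± 1.99 CPM, adjusted p = 0.0109). None of these 3 overlapped between genotypes. With library size alone, 2 of the list were called, both lower.

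Of 20 genes of RNA processing and stability, 2 rose and 3 fell, at a median log2 change of 0.01. Grsf1, an RNA-binding protein of mitochondrial RNA granules, rose from 58.9 ± 4.82 to 77.7 ± 7.47 CPM without overlap (SD, n = 4; log2 change 0.4, SE 0.08, edgeR adjusted p = 0.00513). Rexo2, an oligoribonuclease, rose by a log2 change of 0.3 (SE 0.09, adjusted p = 0.0217), a call that ended without WT replicate 2, WT replicate 3 or cKO replicate 3. Slirp, a partner of Lrpprc in stabilising messengers, fell from 31.3 ± 2.13 to 25.7 ± 0.821 CPM (SD, n = 4; edgeR adjusted p = 0.00888), and Ptcd1, a pentatricopeptide protein, from 11.7 ± 2.17 to 8.15 ± 1.12 CPM (SD, n = 4; edgeR adjusted p = 0.0153), neither with overlap. Fastk was called lower (log2 change -0.26, SE 0.08, adjusted p = 0.035), a call that ended without any 1 of WT replicates 1, 2 and 3 or cKO replicates 1, 3 and 4. By library size alone 5 of the list were called higher and 1 lower.

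Of 14 enzymes that modify mitochondrial ribosomal or transfer RNAs, 2 were called, both lower. Mrm3, a methyltransferase of the large ribosomal RNA, fell from 8.73 ± 1.02 to 6.29 ± 0.556 CPM without overlap (SD, n = 4; log2 change -0.47, SE 0.11, edgeR adjusted p = 0.00817). Trit1, a transfer RNA modifying enzyme, was the other (log2 change -0.2, SE 0.07, edgeR adjusted p = 0.0443), a call that ended when WT replicate 1, 2 or 3 or cKO replicate 1, 2 or 3 was left out. By library size alone, 2 were called higher and 1 lower.

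Of 22 genes that charge the mitochondrial transfer RNAs, 3 were called higher and 5 lower. The lower ones of smallest p were Aars2 for alanine (22.9 ± 0.921 to 15.1 ± 1.71 CPM, SD, n = 4; log2 change -0.6, SE 0.09, edgeR adjusted p = 0.000611), Hars2 for histidine (23.0 ± 0.437 to 18.1 ± 1.06 CPM, adjusted p = 0.00299) and Cars2 for cysteine (15.9 ± 1.32 to 11.9 ± 0.826 CPM, adjusted p = 0.00383). None of these 3 overlapped. The 3 called higher were Gars, which also serves the cytosol (log2 change 0.24, edgeR adjusted p = 0.0283), Iars2 (log2 change 0.24, adjusted p = 0.0319) and Mars2 (log2 change 0.36, adjusted p = 0.0497). Their calls ended without any 1 of WT replicates 1, 2 and 3 or cKO replicates 3 and 4, and that of Mars2 also without cKO replicate 1 or 2. By library size alone 4 were higher and 3 lower.

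Of 8 regulators of mitochondrial biogenesis, 1 was called. It was Gabpa, a subunit of a transcription factor of nuclear respiratory genes, which rose from 14.1 ± 0.246 to 16.8 ± 0.861 CPM (SD, n = 4; log2 change 0.25, SE 0.07, edgeR adjusted p = 0.0165), a call that ended without WT replicate 3.

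The nuclear subunits of the complexes to which the mitochondrial messengers contribute moved mostly down where they were called. Of 7 core subunits of complex I 2 were called, of 9 subunits of complex III 3 and of 10 of complex IV 4, all lower, and of 15 of complex V 1 was called higher and 4 lower. The medians of their log2 changes were -0.15, -0.18, -0.18 and -0.15. Uqcrq of complex III fell from 438 ± 21.5 to 319 ± 24.2 CPM (SD, n = 4; log2 change -0.46, SE 0.08, edgeR adjusted p = 0.00151), Ndufs8 of complex I from 83.2 ± 3.97 to 62.5 ± 6.76 CPM (edgeR adjusted p = 0.00381) and Cox5b of complex IV from 282 ± 17.4 to 220 ± 15.6 CPM (edgeR adjusted p = 0.00562). None of these 3 overlapped. In complex V, Atp5g1 fell from 236 ± 21.1 to 188 ± 9.78 CPM (SD, n = 4; edgeR adjusted p = 0.0095) and Atp5f1 rose from 249 ± 13.1 to 297 ± 18.9 CPM (edgeR adjusted p = 0.0227), the latter a call that ended without WT replicate 2, WT replicate 3 or cKO replicate 4. The call of Ndufs7 of complex I (edgeR adjusted p = 0.0364) ended with any 1 library left out except WT replicates 3 and 4. Those of Uqcrc1 of complex III (adjusted p = 0.026) and Cox6c of complex IV (adjusted p = 0.0252) ended in 4 and 5 of the 8 fits that leave out 1 library. In those fits the number called lower was 1 to 2 for complex I, 2 to 4 for complex III, 2 to 4 for complex IV and 3 to 4 for complex V. By library size alone the calls were 1 higher and 1 lower for complex I and for complex IV, 2 lower for complex III, and 3 higher for complex V.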

How the data were processed

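RNA was taken with Trizol from frozen liver and made into libraries with an Illumina TruSeq RNA kit, per the labels' protocols. The submitters' processing notes name STAR 2.5.1, RSEM and the mm10 build. For the RSEM version, the annotation and the strand setting the sources used here give nothing. Per the file headers, the authors deposited expected counts, effective lengths and TPM per gene, the last divided by effective length and scaled to 1 total per library.

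Expected counts were rounded. Genes were kept with filterByExpr (minimum count 10, minimum total 15), scaled with TMM factors and compared with edgeR 4.0.16 (R 4.3.3; glmQLFit, robust, and glmQLFTest), adjusted by Benjamini-Hochberg over all 15562 tested genes. Ratios were compared by exact two-sided permutation over 70 assignments. Transcripts were searched with blastn 2.17.0 (e-value 1e-20, at least 150 aligned bases) against NCBIM37. Alternatives used RLE or upper quartile factors, library size alone, scaling without mitochondrial genes, no filter, 1 CPM in 4 libraries, an effective length offset, DESeq2 1.42.0, limma 3.58.1 on log2(TPM + 1) and log2(TPM + 0.1), a replicate block and each library left out. The edgeR script was tested on simulated data.

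All 37 mitochondrial genes were described, with Ctcf and, from each list, up to 3 called genes of smallest p in each direction. The genes and lists were chosen with earlier results of these data known. The pairing of genes with nuclear copies, and every fit with copies added, was chosen after seeing the data. No libraries of a genotype agreed within sampling noise (lowest chi-square per degree of freedom 28.6), and each was counted once.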

Additional observations from a re-analysis of the deposited data

Results flagged for a closer look

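In groups of 4 libraries, 100 sets of values were screened for a library standing apart (Dixon's test at its usual level), of which chance alone would mark about 1 in 20. It marked 3. Gm28437, the copy paired with mt-Co3, was at 7090 CPM in WT replicate 3, beside 5741 to 5875 CPM in the other WT libraries. The share of mt-Nd4l in the messenger counts, without copies, was 0.4265% in WT replicate 3 and 0.4979 to 0.5118% in the other WT libraries. The ratio of mt-Nd6 to mt-Nd5 was 0.4864 in cKO replicate 4 and 0.3642 to 0.3802 in the other cKO libraries.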

How the results depend on the processing

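mt-Rnr1 was called lower in all 20 alternatives (log2 -0.72 to -0.46), mt-Rnr2 in 11 and mt-Nd4l in 18. The count of mitochondrial genes called lower, 3, became 5 with DESeq2 (which called 15.7% of all genes lower), 1 with limma on log2(TPM + 0.1), 7 with a replicate block (15.5%), 1 with copies added and library size alone, and 2 to 5 with 1 library left out. The count called higher, 0, became 1 with limma on either TPM scale, and 0 to 1 with 1 library left out; it was mt-Atp8. Libraries of the same replicate number were weakly correlated in their deviations (0.13, 0.05, 0.11 and 0.09). The own number was the best match for replicates 1, 2 and 3 but not 4, so whether the numbers pair the libraries is not settled. Over all genes, calls higher and lower were 3603 and 1318 by library size alone, 3850 and 864 with limma on log2(TPM + 1), 3606 and 755 on log2(TPM + 0.1), and 3601 and 1320 with copies added and library size alone, beside 2367 and 2322. With 1 library left out they ran from 1739 to 2540 and from 1624 to 2486. The number of messengers with a smaller share and no overlap fell from 3 to 1 with copies.

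Signs turned for uncalled changes. With 1 library left out, mt-Nd1 ran from -0.05 to 0.09, mt-Atp6 from -0.18 to 0.18 (its pair -0.1 to 0.07), mt-Co3 from -0.09 to 0.15 (its pair -0.15 to 0.0) and mt-Nd3 from -0.03 to 0.15. Adding copies gave -0.01 for mt-Atp6 and -0.06 for mt-Co3, whose pairs were at 0.1 and 0.04 by library size alone. mt-Nd6 was at 0.08 with limma on both TPM scales. The cause was not tested. With 1 library left out, the nuclear lists gave 3 to 5 lower for replication, 1 to 3 higher for processing, 1 to 3 lower for modification, and 0 to 3 higher and 4 to 6 lower for the synthetases. Of the nuclear genes of mitochondrial function named above, Grsf1, Aars2 and Uqcrq kept their call in all 19 alternatives, while Mterf4 lost it in 12 and changed sign in 2. With 1 library left out, the smallest exact p is 0.0571, and the log2 ratios ran from -0.26 to -0.2 for mt-Rnr1 to mt-Rnr2 and from 0.27 to 0.41 for mt-Nd6 to mt-Nd5 (adjusted p 0.0857 for both).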

Other observations

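4 other listed nuclear genes with candidate mitochondrial sequence passed the filter, and edgeR called 0 of the 4, with 3 at an unadjusted p below 0.05, while DESeq2 called 1, Gm13340 (adjusted p = 0.00711). The share of all genes below that unadjusted p was not computed. Gm13340 had a mean of 32.7 CPM ± 5.91 in WT, beside 22.0 CPM ± 5.59 in cKO (SD, n = 4; log2 change -0.57, SE 0.19, edgeR adjusted p = 0.0537), with overlap. Gm13339 (log2 change -0.4, adjusted p = 0.113), Gm10288 (log2 change -0.23, adjusted p = 0.12) and Gm13341 (log2 change 0.0, adjusted p = 0.996) overlapped too. Gm15564 had no count.

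Among hepatocyte markers, 1 of 10 was called higher and 5 lower, beside 15.2% and 14.9% of all genes. By library size alone 1 was higher and 3 were lower, and with 1 library left out 3 to 5 were lower. Cps1, the urea cycle enzyme of the mitochondrial matrix, rose from 1890 ± 353 to 2830 ± 549 CPM (SD, n = 4; log2 change 0.58, SE 0.15, edgeR adjusted p = 0.0165), with overlap, a call that ended without WT replicate 3. Serpina1c, a protease inhibitor of plasma, fell from 6000 ± 788 to 3910 ± 288 CPM (edgeR adjusted p = 0.00152), and Ttr, the thyroxine carrier transthyretin, from 7620 ± 941 to 4760 ± 687 CPM (edgeR adjusted p = 0.00224), neither with overlap.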
